A study of Mus musculus with 8 samples.

Results

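The genes described here are merlin (Nf2), the other components of the Hippo pathway and known target genes of its effectors YAP and TAZ. They are 41 genes taken by name, of 52636 genes in each count table: 39 listed symbols together with Ccn1 and Ccn2, whose older symbols are Cyr61 and Ctgf. By role, 25 are pathway components and 16 are targets. All 41 were found in the tables and passed the filter on low counts, and the lowest count of any of them in any sample was 19.

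RNA-seq was made from mouse malignant mesothelioma (MM), a cancer that arises from the mesothelium, in 6 triple knockout and 2 double knockout samples. By the title and the sample names, the triple knockout lacks Nf2, Cdkn2a and Bap1, and the double knockout lacks Nf2 and Cdkn2a, so Nf2 and Cdkn2a are deleted in both groups and the groups differ in Bap1, a deubiquitinase of histone H2A. The title calls the models conditional. The Cre driver, the deleted exons, the strain and age of the mice, and the number of animals or cultures behind the samples were not given in the sources used here. P-values therefore measure the spread between these samples, which may be in part technical. The protocol describes cells kept in medium with serum and insulin, while leukocyte markers were counted in every sample, so whether cultures or tissue were sequenced is unclear.

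The Hippo pathway is a kinase cascade that restrains growth. Merlin and other proteins at the cell cortex activate the kinases MST1 and MST2 (Stk4, Stk3) with the scaffold SAV1, and these activate LATS1 and LATS2 with MOB1. LATS kinases phosphorylate YAP (Yap1) and TAZ (Wwtr1), which keeps them out of the nucleus. When the cascade is off, YAP and TAZ bind TEAD transcription factors and raise genes such as Ccn1, Ccn2 and Ankrd1. NF2 is among the genes most often lost in human mesothelioma. The cascade acts largely through phosphorylation and location of proteins, which RNA levels do not measure.

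Total counts ran from 28326756 to 30232440 in the triple samples, against 32082535 and 26847202 in double samples 1 and 2. Levels are given as CPM, read counts scaled to each library's total, after TMM scaling. Double sample 1 stood apart: its log2 levels correlated across genes at r = 0.804 to 0.878 with the triple samples, against 0.903 to 0.93 for double sample 2, genes not being independent replicates. Its TMM factor was 0.771, against 0.994 to 1.1 in the other 7, and mitochondrial genes took 4.04% of its counts, against 1.16% to 2.33%. It was the highest of the 8 samples for 12 of the 41 genes and the lowest for 12 others, so called genes are given with and without it. Of 13 mesothelial markers, Wt1, Upk3b, Lrrn4 and Krt19 stood at 33.2, 173, 75.4 and 52.9 CPM in triple sample 3, and Calb2, another such marker, was at 0 there. In the other 7 samples Wt1, Upk3b and Krt19 were at most 1.76, 0.365 and 0.734 CPM and Calb2 at most 0.0317 CPM, and Lrrn4 was at most 0.298 CPM but for 8.30 CPM in double sample 1. Krt8 was highest in double sample 2, at 799 CPM, and Msln was counted in all 8 (12.6 to 194 CPM in the triple samples, 251 and 342 CPM in the double samples). Of the targeted genes outside the pathway, Bap1 ranged from 43.1 to 72.1 CPM in the triple samples, against 106 and 71.2 CPM in the double samples (adjusted p = 0.122). Cdkn2a ranged from 4.05 to 8.76 CPM, against 1.54 and 5.16 CPM.

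Between the triple and the double samples a few members changed, in both directions. Wwc1, Fat4 and Fjx1 were higher in the triple samples, and Tead4, Amotl1, Ankrd1 and Gadd45a were lower. The 25 components held 2 genes that rose, 2 that fell and 21 that were not called; their median log2 fold change was -0.01. The 16 targets held 1 that rose, 2 that fell and 13 that were not called, and their median was 0.24, while the median over all 17709 genes tested was 0.02. The targets' median depended on double sample 1. It was -0.02 without double replicate 1 (0.05 over all genes) and 0.41 without double replicate 2 (0.15 over all genes). A gene was called when its Benjamini-Hochberg adjusted p over all genes tested was under 0.05 in edgeR's quasi-likelihood test of triple minus double. By that rule 8.35% of all genes tested were called, 2.94% higher and 5.41% lower, and 17.1% of the 41 members (7 genes). In 12 of the 41 (29.3%) the triple and double samples did not overlap in CPM, 5 higher and 7 lower, against 24.1% of all genes tested (12.8% higher and 11.4% lower). The share without overlap is close to the background.

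**Figure D1:**
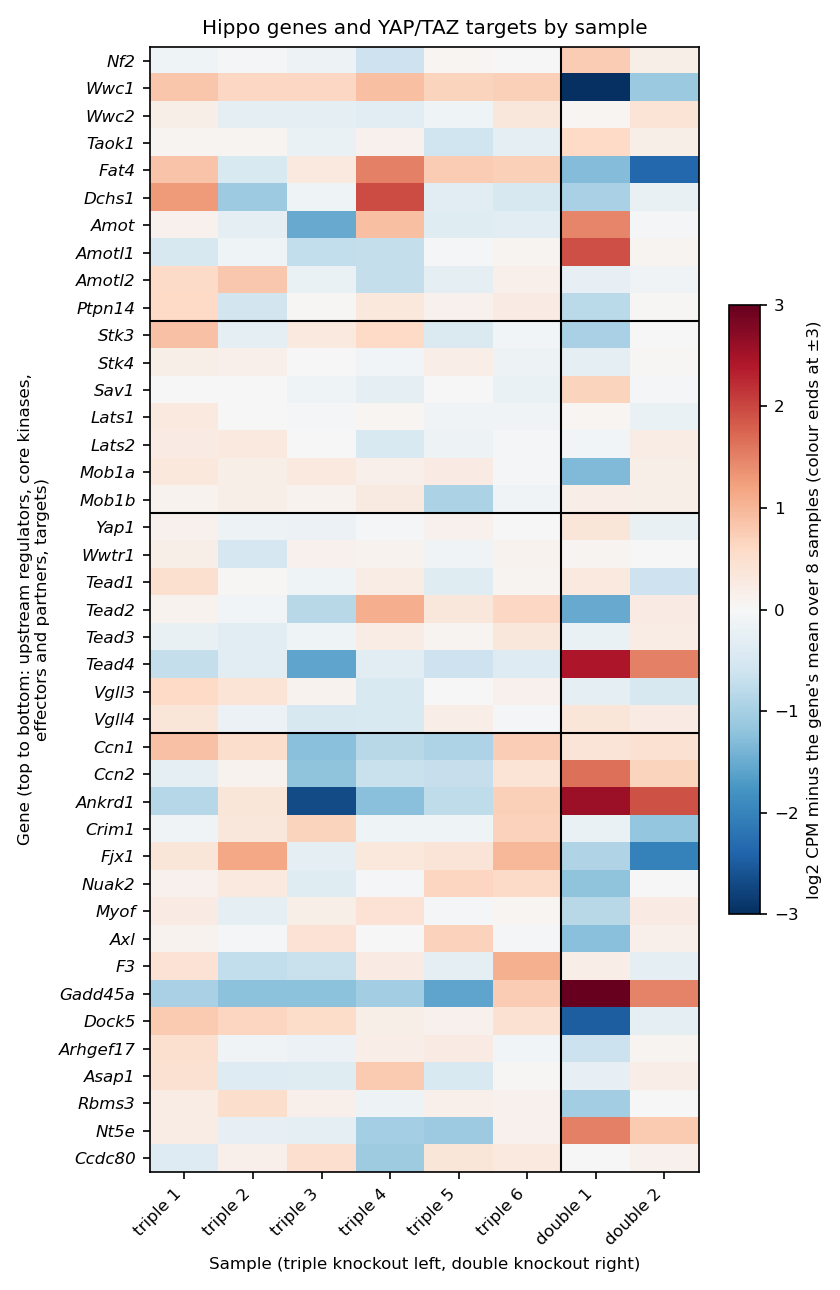
Level of each of the 41 genes in each sample, as log2 CPM minus the gene's mean over the 8 samples (colour), with triple samples 1 to 6 left of double samples 1 and 2 and genes ordered by role. Tead4, Ankrd1 and Gadd45a are red in both double samples, Wwc1 and Fat4 are blue there, and double sample 1 holds the most extreme colours.

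**Figure D2:**
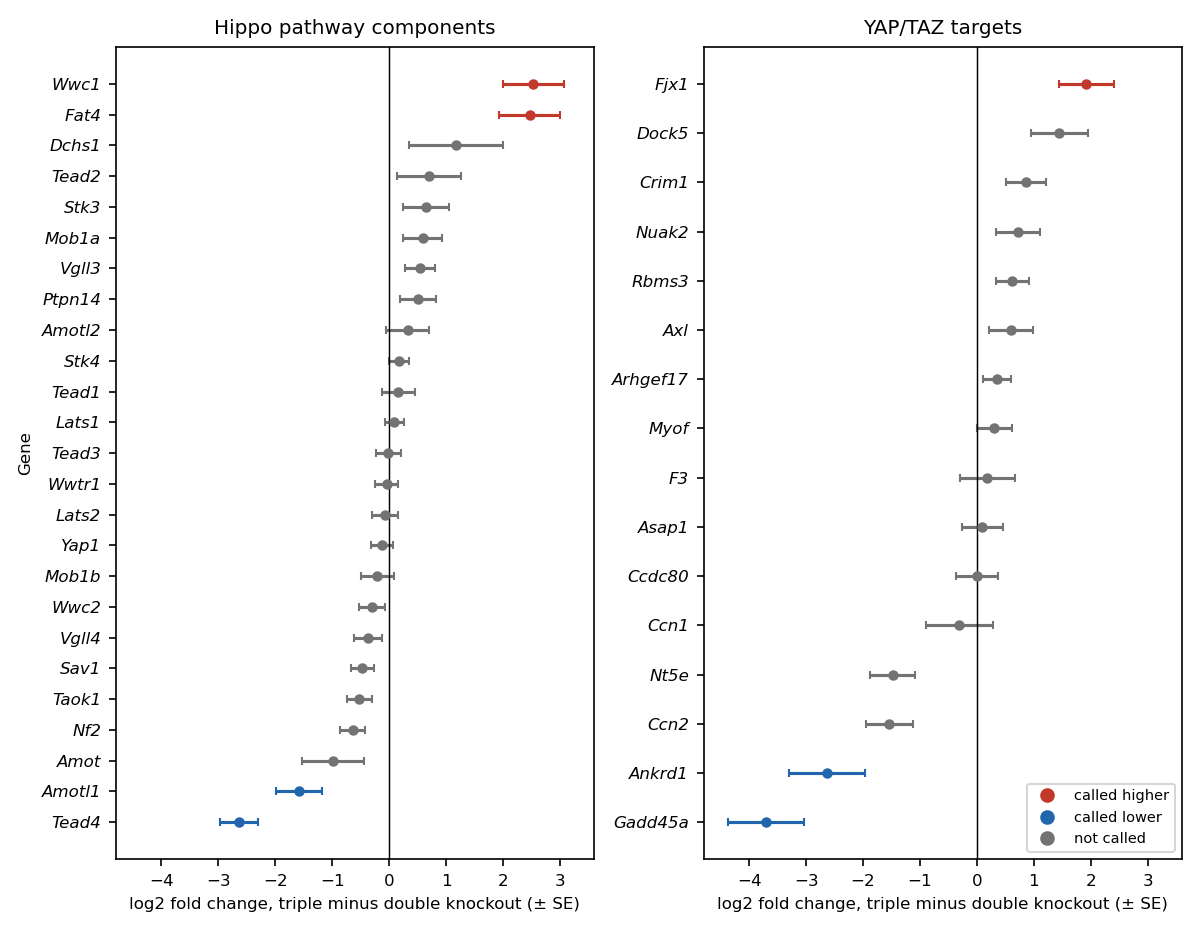
Log2 fold change, triple minus double, with its standard error (bars) for 25 components (left panel) and 16 targets (right panel), each panel in order of fold change. The 3 genes called higher (Wwc1, Fat4, Fjx1) lie between 1.92 and 2.53 and the 4 called lower (Amotl1, Tead4, Ankrd1, Gadd45a) between -3.71 and -1.59, with most others within 1 of 0.

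Nf2, deleted in both groups by the labels (chromosome 11, 4765845 to 4849536), was counted in every sample. It stood at 88.0, 93.7, 87.1, 62.7, 100.3 and 95.5 CPM in triple samples 1 to 6, against 165 and 109 CPM in double samples 1 and 2. All 6 triple samples lay below both double samples, as they did for 11.4% of all genes tested. The log2 fold change was -0.64 ± 0.22 (SE) with adjusted p = 0.103 by edgeR. An exact permutation test of the mean log2 level, 2-sided over all 28 assignments of the group labels, gave p = 0.0357, the smallest it can give, with a difference of -0.62. Any gene whose groups do not overlap can reach this p, so it adds no support beyond the lack of overlap. Without double replicate 1 the edgeR value was -0.31 (adjusted p = 0.624), and without double replicate 2 it was -0.89 (adjusted p = 0.0254). Counts cover the whole gene, exons outside the deleted part included, so these levels do not measure the deletion and hold no information on merlin protein.

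Among the 9 other upstream regulators 2 rose, Wwc1 and Fat4, and 1 fell, Amotl1. Wwc1 encodes KIBRA, a scaffold that works with merlin to activate LATS. It stood at 13.0, 11.1, 11.1, 13.7, 11.6 and 12.04 CPM in triple samples 1 to 6, against 0.769 and 3.39 CPM in double samples 1 and 2. The 6 triple samples were close to each other and all above the double samples, which differed from each other several-fold. The log2 fold change was 2.53 ± 0.53 (adjusted p = 0.0273 by edgeR). It was 1.83 (adjusted p = 0.0344) without double replicate 1 and 3.98 (adjusted p = 0.000954) without double replicate 2, and its adjusted p was 0.0511 to 0.0582 without triple replicate 1, 4, 5 or 6.

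Fat4 encodes a giant atypical cadherin, and Dchs1 encodes its ligand, a cadherin of the same kind. In fly, their counterparts Fat and Dachsous act upstream of the Hippo kinase, and Fjx1 (a target here) is the mouse counterpart of the fly kinase that modifies both. Fat4 stood at 61.7, 25.0, 41.4, 96.5, 57.4 and 56.1 CPM in triple samples 1 to 6, against 13.7 and 6.64 CPM in double samples 1 and 2. The groups did not overlap, although triple samples 2 and 4 differed by more than 3-fold. For Fat4 the log2 fold change was 2.47 ± 0.54 (adjusted p = 0.0307 by edgeR). It was 3.07 (adjusted p = 0.0958) without double replicate 1, 2.05 (adjusted p = 0.0564) without double replicate 2, and its adjusted p was 0.0577 to 0.0641 without triple replicate 1, 5 or 6. Dchs1 stood at 77.0, 14.9, 28.9, 123, 25.1 and 22.7 CPM in triple samples 1 to 6, against 16.1 and 27.0 CPM in the double samples, with a log2 fold change of 1.17 ± 0.83 (adjusted p = 0.381). Triple samples 1 and 4 were the highest for Dchs1 and also for Fat4, and the other 4 triple samples had Dchs1 near the double samples.

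Amotl1, an angiomotin family protein that binds YAP and tethers it at tight junctions, fell by 1.59 ± 0.41 on the log2 scale (adjusted p = 0.0476 by edgeR). It stood at 163, 206, 135, 139, 220.1 and 240.0 CPM in triple samples 1 to 6, against 865 and 239.9 CPM in double samples 1 and 2. Double sample 1 alone was high, and double sample 2 lay at the level of triple sample 6. Without double replicate 1 the value was -0.39 (adjusted p = 0.664), without double replicate 2 it was -2.22 (adjusted p = 0.00263), and without any 1 of the triple samples the adjusted p was 0.0669 to 0.0961. The other angiomotins were not called. Amot averaged 77.2 ± 41.5 CPM in the triple samples (SD, n = 6), against 225 and 79.0 CPM in the double samples, and Amotl2 averaged 209 ± 81.9 CPM, against 159 and 176 CPM.

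Taok1, a kinase that phosphorylates MST kinases, stood at 129, 129, 106, 134, 79.99 and 100.3 CPM in triple samples 1 to 6, against 186 and 139 CPM in double samples 1 and 2. The groups did not overlap, but the log2 fold change of -0.52 ± 0.23 was not called (adjusted p = 0.173 by edgeR), and was -0.30 (adjusted p = 0.723) without double replicate 1. Wwc2, a KIBRA paralog, ranged from 73.7 to 117 CPM in the triple samples, against 94.8 and 123 CPM, and Ptpn14, a phosphatase that binds YAP, from 80.7 to 180.4 CPM, against 67.6 and 121 CPM. Both overlapped between the groups.

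By role, the core kinase cassette had the lowest median coefficient of variation across the 6 triple samples, 10.6% over its 7 genes. The median was 24.2% for the upstream regulators, 21.9% for effectors and partners and 34.9% for targets. Within the cassette the values ran from 8.3% (Sav1) to 36.1% (Stk3), and no median over all genes was computed to set beside them. None of the 7 genes was called by edgeR, DESeq2 or limma-voom, against 8.35%, 19.2% and 6.04% of all genes tested. An unadjusted edgeR p under 0.05 was found for 1 of the 7, Sav1, against 4947 of all 17709 genes. Sav1, the scaffold of the MST kinases, ranged from 81.7 to 100.03 CPM in the triple samples, against 160.3 and 98.2 CPM in the double samples (adjusted p = 0.163). Its log2 fold change was -0.0793 (adjusted p = 0.892) without double replicate 1 and -0.76 (adjusted p = 0.0135) without double replicate 2. Lats1 and Lats2 averaged 86.4 ± 9.16 and 46.7 ± 8.605 CPM in the triple samples (SD, n = 6), against 81.2 ± 9.90 and 49.1 ± 7.34 CPM in the double samples (SD, n = 2). In the annotation used here 42.4% of the exon length of Lats2 is shared with Gm49361, which was listed at 0 counts in all 8 samples, so the Lats2 count may miss reads of the shared part. Stk3 ranged from 36.3 to 89.1 CPM, against 24.7 and 48.6 CPM, and Stk4 from 55.8 to 71.7 CPM, against 50.9 and 63.6 CPM. Mob1a, an activating partner of LATS, ranged from 201 to 254 CPM in the triple samples, against 231 CPM in double sample 2 and 81.3 CPM in double sample 1, which alone was low. It was at 0.0158 (adjusted p = 0.985) on the log2 scale without double replicate 1 and at 1.54 (adjusted p = 0.00288) without double replicate 2. Its paralog Mob1b ranged from 27.0 to 62.7 CPM, against 59.7 and 58.3 CPM.

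Neither effector was called. Yap1 stood at 138, 113, 111, 119, 136 and 123 CPM in triple samples 1 to 6, against 161 and 107 CPM in double samples 1 and 2, a log2 fold change of -0.12 ± 0.19 (adjusted p = 0.704 by edgeR). Wwtr1, which encodes TAZ, stood at 236, 147, 229.6, 223, 193 and 224 CPM, against 221 and 209 CPM, a log2 fold change of -0.04 ± 0.21 (adjusted p = 0.91). The signs of both values turned under some settings: Yap1 was at 0.20 without double replicate 1, and Wwtr1 at 0.0296 with upper-quartile scaling. Per kilobase of exon, TAZ transcripts outnumbered YAP transcripts in every sample, with 71.6% to 80.03% of their summed level in the triple samples, against 72.6% and 79.1% in the double samples.

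Of the TEAD genes, which encode the DNA-binding partners of YAP and TAZ, Tead4 alone was called. It stood at 8.10, 10.5, 4.40, 10.5, 8.52 and 10.1 CPM in triple samples 1 to 6, against 70.8 and 37.8 CPM in double samples 1 and 2. Every triple sample was far below both double samples. The log2 fold change was -2.64 ± 0.33 (adjusted p = 0.00459 by edgeR), and the call held without any 1 sample, at -2.13 (adjusted p = 0.0469) without double replicate 1 and -3.01 (adjusted p = 0.00182) without double replicate 2. Per kilobase of exon, Tead4 made up 4.80% ± 1.11 of the summed TEAD level in the triple samples (SD, n = 6), against 33.1% and 21.5% in double samples 1 and 2. The summed TEAD level itself was 36.4 to 66.0 CPM per kilobase in the triple samples, against 59.4 and 49.0 CPM per kilobase, so the double samples lay within the triple range. Tead1 held the largest share in each of the 8 samples, 42.4% to 61.1% in the triple samples, against 50.2% and 32.1% in the double samples, where in double sample 2 Tead2 was at 32.0%. Tead2 was the most variable, at 35.3 to 133 CPM in the triple samples, against 22.0 and 75.1 CPM, and Tead3 ranged from 32.7 to 51.5 CPM, against 35.5 and 47.4 CPM.

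**Figure D3:**
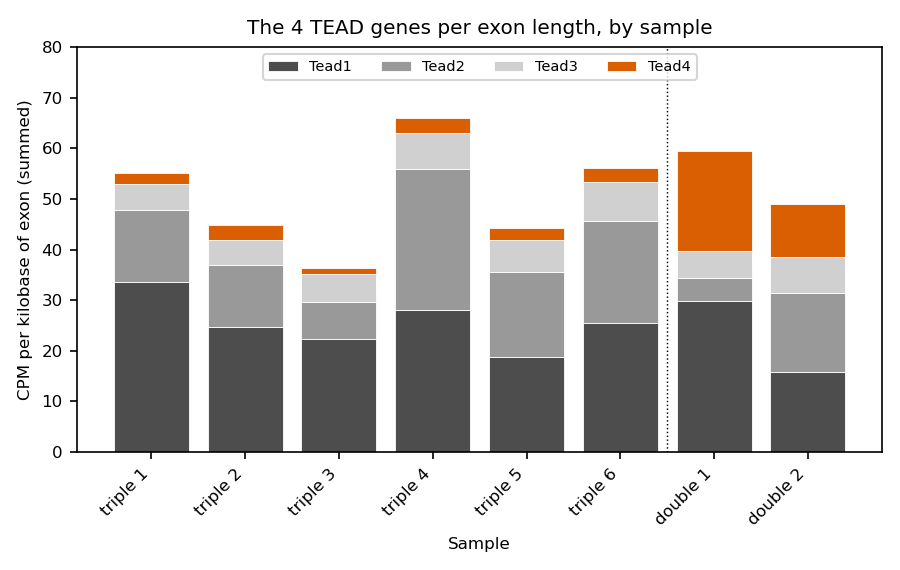
Stacked level of the 4 TEAD genes, in CPM per kilobase of merged exon, for triple samples 1 to 6 (left of the dotted line) and double samples 1 and 2. The Tead4 part of the bar is 4.80% on average in the triple samples, against 33.1% and 21.5% in the double samples, while bar heights overlap.

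Vgll3 and Vgll4 encode cofactors of TEAD, and VGLL4 is known to compete with YAP for it. Vgll3 ranged from 54.1 to 112 CPM in the triple samples, against 60.8 and 53.3 CPM (log2 0.54 ± 0.27, adjusted p = 0.218), and Vgll4 from 42.4 to 76.1 CPM, against 76.1 and 70.7 CPM (log2 -0.37 ± 0.24, adjusted p = 0.352). Neither was called.

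Tead4 is also known for its part in muscle differentiation, and muscle transcripts parted the groups in the same direction. Of 12 embryonic muscle markers 10 fell and none rose, while 5.41% of all genes tested fell and 2.94% rose. Without double replicate 1 the markers' log2 fold changes ran from -7.41 (Cdh15) to 0.37 (Myf6), and fewer of them were called. The summed level of these markers was 5.34 to 169 CPM in the triple samples, against 6814 and 2183 CPM in double samples 1 and 2. In the triple samples the defining factor Myog was at 0.199 to 17.8 CPM, against 510.0 and 377 CPM. The part of these cells or transcripts in the Tead4 result was not tested. Of 14 adult skeletal muscle markers none was called by edgeR, against 8.35% of all genes tested. An unadjusted edgeR p under 0.05 was found for 3 of the 14, against 4947 of all 17709 genes. DESeq2 called 2 and limma-voom 0, against 19.2% and 6.04% of all genes. The sum of these markers overlapped between the groups, at 147 to 15717 CPM in the triple samples, against 77155 and 3127 CPM in the double samples. In bulk RNA, fewer cells of a type and less RNA per cell cannot be told apart.

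Promoter sequences from RefSeq (GRCm38.p6) are shown for 3 targets: Ankrd1 and Gadd45a, which fell, and Ccn1, a classical YAP target that was not called. Capitals mark CATTCC or its reverse complement GGAATG, the core letters of the TEAD motif, searched on both strands in the 250 bases before the transcript start. Each sequence runs 5′ to 3′ on the gene's own minus strand: Ankrd1 at chr19:36119845-36120094, Ccn1 at chr3:145649986-145650235 and Gadd45a at chr6:67037408-67037657.
Ankrd1: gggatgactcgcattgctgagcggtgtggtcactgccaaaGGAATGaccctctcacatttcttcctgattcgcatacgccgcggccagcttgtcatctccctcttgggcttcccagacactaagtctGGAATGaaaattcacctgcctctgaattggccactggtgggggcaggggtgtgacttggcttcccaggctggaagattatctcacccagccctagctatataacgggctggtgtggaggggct
Ccn1: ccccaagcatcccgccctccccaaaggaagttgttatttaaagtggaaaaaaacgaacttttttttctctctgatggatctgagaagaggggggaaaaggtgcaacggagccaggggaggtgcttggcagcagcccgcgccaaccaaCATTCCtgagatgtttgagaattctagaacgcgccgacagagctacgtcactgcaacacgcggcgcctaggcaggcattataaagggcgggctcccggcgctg
Gadd45a: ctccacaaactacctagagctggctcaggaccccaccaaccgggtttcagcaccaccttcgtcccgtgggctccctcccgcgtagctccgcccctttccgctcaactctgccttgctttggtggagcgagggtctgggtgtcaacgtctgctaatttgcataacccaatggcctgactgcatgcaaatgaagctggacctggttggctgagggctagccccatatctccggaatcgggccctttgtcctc
Ankrd1 had 2 matches, starting 210 and 123 bases before the transcript start, Ccn1 had 1, starting 103 bases before it, and Gadd45a had none in this window. The table holds 36 windows for 30 of the 41 genes, and 44.4% of these windows held the motif, 46.2% for components and 40.0% for targets, against 12.6% of all 32851 windows in the table. The share is a description: a match is not a bound site, and the same window of Fat4, Wwc1 and Amotl1, which were called, held none.

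Ankrd1, a muscle ankyrin repeat protein and a classical YAP target, fell. It stood at 76.8, 179, 21.5, 57.8, 81.8 and 229 CPM in triple samples 1 to 6, against 822 and 518 CPM in double samples 1 and 2. All triple samples were below both double samples, and triple sample 3 was the lowest. This gave a log2 fold change of -2.64 ± 0.67 (adjusted p = 0.0465 by edgeR). It was -2.27 (adjusted p = 0.28) without double replicate 1 and -2.91 (adjusted p = 0.0356) without double replicate 2, and the adjusted p was 0.0572 to 0.0961 without triple replicate 1, 2, 4 or 5. Ankrd1 is also a muscle gene, and the embryonic muscle sums were likewise lower in the triple samples (5.34 to 169 CPM, against 6814 and 2183 CPM). Among the triple samples both were highest in sample 6. Ankrd1 was lowest in sample 3 (sum 20.5 CPM), and the sum was lowest in sample 4 (Ankrd1 57.8 CPM). Of 8 smooth muscle markers 7 were tested, with 4 positive and 3 negative fold changes. Of the 7, 1 was called (14.3%, against 8.35% of all genes tested), Actg2, which was lower. The sum of the 8 markers, 345 to 1680 CPM in the triple samples, against 9575 and 2427 CPM, is carried in the double samples by Des and Acta2. The part of either marker list in the Ankrd1 result was not tested.

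The paired matricellular genes Ccn1 and Ccn2, the most used readouts of YAP, differed in what they showed. Ccn2 stood at 198, 256, 103, 149, 147 and 319 CPM in triple samples 1 to 6, against 754 and 380.3 CPM in double samples 1 and 2, with no overlap between the groups. Its log2 fold change of -1.54 ± 0.41 did not pass the threshold (adjusted p = 0.0525 by edgeR), was called by DESeq2 (-1.58, adjusted p = 0.0107), and was -0.97 (adjusted p = 0.447) without double replicate 1, -1.93 (adjusted p = 0.0202) without double replicate 2 and -1.77 (adjusted p = 0.0454) without triple replicate 6. Ccn1 stood at 318, 249, 71.9, 95.7, 91.0 and 287 CPM in triple samples 1 to 6, against 224 and 234 CPM, a log2 fold change of -0.31 ± 0.58 (adjusted p = 0.758). Its double samples lay inside the range of the triple samples, which fell apart into samples 1, 2 and 6 above them and samples 3, 4 and 5 below. Samples 1, 2 and 6 were also the highest triple samples for Ccn2, and triple sample 3 was the lowest for Ccn1, Ccn2 and Ankrd1.

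Gadd45a, a stress-induced inhibitor of the cell cycle, had the lowest fold change of the 41 genes. It stood at 12.8, 10.7, 10.7, 12.2, 8.46 and 42.8 CPM in triple samples 1 to 6, against 356 and 70.1 CPM in double samples 1 and 2. Triple sample 6 was well above the other 5 and still below both double samples. The embryonic muscle sum was also highest of the triple samples in triple sample 6, at 169 CPM, and at 6814 and 2183 CPM in the double samples. Among the other triple samples Gadd45a and the sum ran in different orders. The sum was 129 CPM in sample 2 (Gadd45a 10.7 CPM) and 5.34 CPM in sample 4 (Gadd45a 12.2 CPM). The part of these muscle transcripts in the Gadd45a result was not tested. For Gadd45a the log2 fold change was -3.71 ± 0.67 (adjusted p = 0.017 by edgeR). It was -2.11 (adjusted p = 0.219) without double replicate 1, -4.43 (adjusted p = 0.00354) without double replicate 2 and -4.33 (adjusted p = 0.00735) without triple replicate 6. E230016M11Rik, on the opposite strand, overlaps 19.1% of its exon length and had 20 to 230 counts per sample. Whether the counting used strand is not given in the sources used here, so reads of that part cannot be told apart. The same limit holds for Ccn2 and Sav1, which also overlap genes on the opposite strand. Gm15270 overlaps 23.2% of the exon length of Ccn2 and had 10 to 74 counts per sample. Atl1 overlaps 25.4% of that of Sav1 and had 86 to 138.

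Fjx1, a secreted kinase-like protein of the Fat4 and Dchs1 system, rose. It stood at 17.3, 30.2, 11.1, 16.8, 17.6 and 26.9 CPM in triple samples 1 to 6, against 7.29 and 3.32 CPM in double samples 1 and 2, with no overlap. Its log2 fold change was 1.92 ± 0.48 (adjusted p = 0.0453 by edgeR). It was 2.59 (adjusted p = 0.0997) without double replicate 1, 1.47 (adjusted p = 0.0838) without double replicate 2, and had an adjusted p of 0.0666 to 0.0858 without triple replicate 1, 2, 4, 5 or 6. Of 10 fibroblast markers 1 was called (10%, against 8.35% of all genes tested), Pdgfra, which was higher. In 2 of the 10 the groups did not overlap, against 24.1% of all genes, so both counts are near the background. Of the 10 markers 7 had positive fold changes and 3 negative (Pdgfrb, Fap and Thy1). Their sum, most of it from Col1a1, Col1a2 and Col3a1, was 19754 to 45385 CPM in the triple samples, against 11709 and 14297 CPM in the double samples. Their part in the Fjx1 and Fat4 results was not tested.

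**Figure D4:**
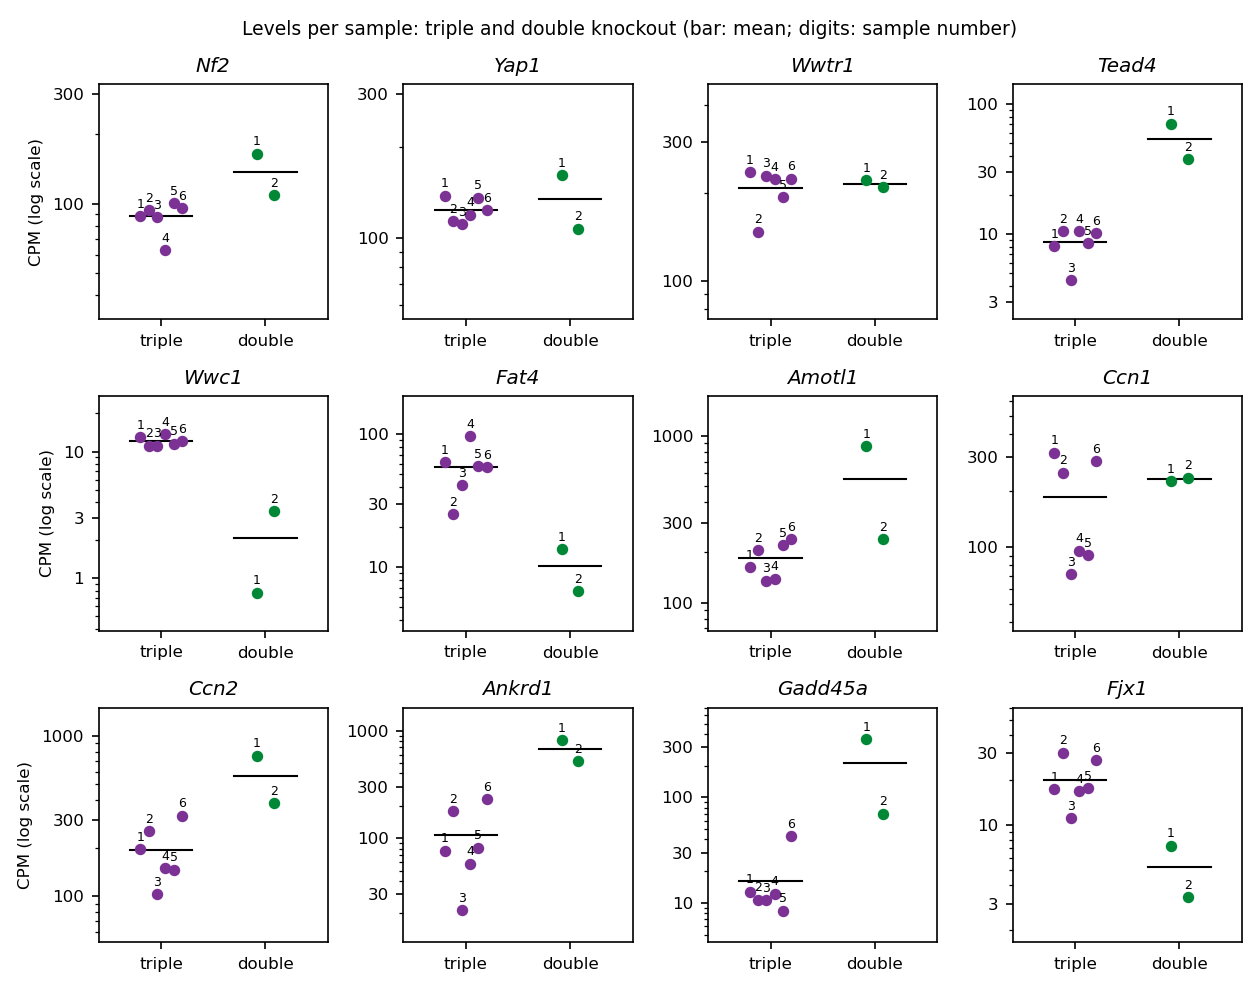
CPM in each sample (log axis; points are samples with their number, bars are group means) for 12 genes, triple samples (purple) left of double samples (green). Tead4, Ccn2, Ankrd1 and Gadd45a have all triple points below both double points, Wwc1, Fat4 and Fjx1 have them above, and the points of Yap1, Wwtr1, Ccn1 and Amotl1 overlap.

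Of the remaining targets, 3 had groups that did not overlap without being called. Nt5e, the ecto-enzyme CD73, stood at 10.5, 7.57, 7.41, 4.41, 4.18 and 9.87 CPM in triple samples 1 to 6, against 25.4 and 15.5 CPM in double samples 1 and 2 (log2 -1.48 ± 0.39, adjusted p = 0.0525 by edgeR and 0.00749 by DESeq2). Dock5, an activator of Rac, stood at 160.2, 144, 135, 105, 102 and 128 CPM, against 16.8 and 77.7 CPM (log2 1.45 ± 0.50, adjusted p = 0.108). It was called without double replicate 2, at 2.95 (adjusted p = 0.00169), by DESeq2 at 1.44 (adjusted p = 0.0253) and within SN930 at 2.75 (adjusted p = 0.0303), and stood at 0.73 (adjusted p = 0.302) without double replicate 1. Nt5e was at -1.09 (adjusted p = 0.381) without double replicate 1 and -1.78 (adjusted p = 0.0267) without double replicate 2. Crim1, a membrane protein that binds BMPs, stood at 44.5, 60.6, 75.8, 44.1, 44.1 and 77.1 CPM, against 42.0 and 21.5 CPM (log2 0.86 ± 0.35, adjusted p = 0.155).

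The other 8 targets overlapped between the groups, and none was called (the lowest adjusted p, for Rbms3, was 0.192). Axl, a receptor tyrosine kinase, had the highest mean level per kilobase of the 41 genes over the 8 samples, 144 CPM per kilobase of exon. It ranged from 652 to 1097 CPM in the triple samples, against 287 and 757 CPM. Myof (myoferlin, a membrane repair protein) ranged from 371 to 613 CPM, against 256 and 542 CPM, and Rbms3 (an RNA-binding protein) from 69.4 to 111 CPM, against 37.1 and 76.5 CPM. For these and for Nuak2, a kinase (14.6 to 29.0 CPM, against 8.06 and 18.7 CPM), double sample 1 was the lowest of the 8 samples. Ccdc80, a matrix protein, averaged 266 ± 91.0 CPM in the triple samples (SD, n = 6) and 266 ± 19.2 CPM in the double samples (SD, n = 2). F3 (tissue factor) ranged from 9.18 to 32.2 CPM, against 17.4 and 12.7 CPM, Arhgef17 from 88.4 to 141 CPM, against 64.7 and 106 CPM, and Asap1 (an Arf regulator) from 114 to 269 CPM, against 133 and 179.9 CPM.

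The labels carry a description code, SN930 in double sample 1 and triple samples 4, 5 and 6, and other codes in double sample 2 and triple samples 1, 2 and 3. Its meaning is not given, and the code and the double sample cannot be told apart. Within SN930, and then within the other codes, the log2 fold change was 4.03 and 1.78 for Wwc1, 2.37 and 2.66 for Fat4, and 1.51 and 2.55 for Fjx1. It was -2.85 and -2.31 for Tead4, -2.72 and -2.49 for Ankrd1, -4.05 and -2.63 for Gadd45a, and -2.10 and -0.52 for Amotl1. The 7 called genes had the same direction in both sets. For the 6 of them whose groups do not overlap, this follows from the lack of overlap, so the shared direction adds no support. Nf2 stood at -0.92 within SN930 and -0.29 within the other codes. Each set holds 1 double sample, whose spread is taken to be that of the 3 triple samples, and the one in SN930 is the sample that stood apart, so calls within a set add no support. Within SN930 Wwc1, Tead4, Amotl1, Mob1a, Tead2 and Dock5 were called. None of the 41 was called within the other codes, where 1 of 18123 genes was called (0.00552%).

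How many of the 41 genes were called depended on the setting, and so did the share of all genes. DESeq2 called 10, against 19.2% of all genes tested, and limma-voom 4, against 6.04%. With RLE scaling 7 were called (8.74% of all genes), with upper-quartile scaling 5 (7.43%), with no filter on low counts 7 (4.63%), with a filter of 1 CPM in 2 samples 7 (8.79%), with robust dispersion 7 (8.11%) and with the description code as a term 4 (5.43%). Within SN930 6 were called, against 11.8% of all genes. Without double replicate 1, 2 members were called (Wwc1 and Tead4), against 1.69% of all genes, and without double replicate 2, 15 were called, against 29.5%. Without triple replicates 1, 2, 3, 4, 5 and 6 in turn, 2, 4, 6, 3, 2 and 4 members were called, against 3.61%, 5.3%, 5.17%, 4.53%, 4.62% and 4.72% of all genes.

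Other genes of the pathway were 46 further components and 14 further targets. Of 41 further components tested none rose and 2 fell (4.88% called, against 8.35% of all genes), and their median log2 fold change was 0.05. Patj, a scaffold of the Crumbs polarity complex, ranged from 2.32 to 7.85 CPM in the triple samples, against 351 and 15.4 CPM in the double samples (log2 -5.24 ± 0.85, adjusted p = 0.0115 by edgeR), and was at -1.67 (adjusted p = 0.284) without double replicate 1. Tnik, a kinase of the MAP4K family, ranged from 18.6 to 27.8 CPM, against 48.5 and 39.5 CPM (log2 -0.94 ± 0.21, adjusted p = 0.031), and was at -0.80 (adjusted p = 0.194) without double replicate 1. Of the 14 further targets 1 rose and none fell (7.14% called), with a median of 0.05. Ereg (epiregulin, a ligand of the EGF receptor) ranged from 9.50 to 29.5 CPM in the triple samples, against 1.66 and 3.32 CPM (log2 3.04 ± 0.59, adjusted p = 0.021), and was at 2.62 (adjusted p = 0.151) without double replicate 1. Without double replicate 1 the median was 0.05 for the further components and 0.26 for the further targets, and no gene of either list kept its call.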

How the data were processed

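RNA was sequenced from 6 triple knockout and 2 double knockout mouse malignant mesothelioma samples. Each sample has 1 deposited table of raw counts by gene, with gene coordinates, per the file headers. The submitters' processing notes name HTSeq, DESeq2, mm10 and GRCm38, without saying what each did. Which aligner, annotation release and strand setting were used was not given in the sources used here. Groups follow the genotype label, and replicate numbers follow accession order, so they pair no samples.

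Gene symbols came from the reference's gene table. Of the 41 members, 36 had the coordinates of GENCODE M21 on GRCm38, whose merged exons gave the lengths for levels per kilobase. Starts, counted from 0 in the files, are printed counted from 1. After the filterByExpr filter and TMM scaling, the groups were compared over all 8 samples, with no covariate, by the quasi-likelihood test of edgeR 4.0.16 in R 4.3.3. Standard errors were derived from the test statistic. Log2 levels used a prior count of 2. DESeq2 1.42.0, limma-voom (limma 3.58.1), RLE and upper-quartile scaling, no filter, a filter of 1 CPM in 2 samples, robust dispersion, the description code as a term or as a split, and leaving out each sample were the alternatives. Fits without a sample filter genes anew. Where 1 double sample is left, its spread is taken to be that of the triple samples. The tests were checked on simulated counts. No pair of samples looked like a duplicated library (median chi-square over genes of at least 11.5).

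The members, the gene lists and the tests were chosen with earlier results of these data known. Values per sample and full statistics are given for Nf2, Yap1, Wwtr1, Ccn1, Ccn2, Ankrd1, every member called and every member whose groups do not overlap. Of the further pathway lists, up to 4 called genes of smallest p are named. Genes with near-identical copies carry uncertain counts, and overlapping genes share reads where strand was not used.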

Additional observations from a re-analysis of the deposited data

Results flagged for a closer look

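Of the 41 genes, 3 had a triple sample far from the other 5, by the gap to its nearest neighbour over the range of the 6. Chance flags about 1 in 20 such groups. Gadd45a stood at 42.8 CPM in triple sample 6, with the next highest triple sample at 12.8 CPM and a gap of 0.873 of the range. Nf2 stood at 62.7 CPM in triple sample 4, with the next lowest at 87.1 CPM and a gap of 0.649 of the range. Lats1 stood at 104 CPM in triple sample 1, with the next highest at 88.2 CPM and a gap of 0.632 of the range. Leaving out the sample concerned, the log2 fold change was -4.33 for Gadd45a (adjusted p = 0.00735 by edgeR) and -0.56 for Nf2 (adjusted p = 0.132).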

How the results depend on the processing

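Counts of called genes depended on single samples. Leaving out each sample in turn gave 1 to 6 called components (4 over all samples), 0 to 9 called targets (3), 0 to 12 further components (2), 0 to 2 further targets (1) and 315 to 5579 genes in all (1478). The lowest and highest counts in all came without double replicate 1 and without double replicate 2. Of the 7 called genes, 2 remained called without double replicate 1, and 5 without double replicate 2, where 15 members were called. DESeq2 called 3380 genes, 6 targets, 7 further components and 2 further targets; all 7 genes remained called. Limma-voom called 2 components, and Fat4, Amotl1, Ankrd1 and Fjx1 lost their calls. With the description code as a term 962 genes and 1 target were called, and Amotl1, Ankrd1 and Fjx1 lost their calls. Within SN930 1 target was called, and within the other codes 1 gene in all and 0 in each of the 4 lists. The counts of called members stayed within 1.5 times under the other settings tried (RLE and upper-quartile scaling, no filter, a filter of 1 CPM in 2 samples, robust dispersion), where Fjx1 lost its call with RLE and Amotl1 and Ankrd1 with upper-quartile scaling. The cause of these changes was not tested, beyond the fewer samples in the reduced fits.

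Among the 16 genes followed under every setting, the direction turned for 2 with values near 0. Yap1 (-0.12) was at 0.16 within the other codes and at -0.37 to 0.20 with a sample left out (0.20 without double replicate 1), and Wwtr1 (-0.04) was at 0.0296 with upper-quartile scaling and at -0.10 to 0.0378 with a sample left out (0.0378 without triple replicate 2). The Nf2 difference of the permutation test was -0.95 within SN930 and -0.29 within the other codes, where the smallest possible p is 0.25, and -0.91 to -0.33 with a sample left out. That test was not run for settings that change the model or the gene filter. No paired analysis was possible because replicate numbers follow accession order and pair no samples. With 2 double samples, a p above the threshold does not show that a gene did not differ.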

Other observations

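Among the triple samples, the same 3 were the highest for a few targets, a pattern chosen after the values of Ccn1 and Ccn2 were seen. Triple samples 1, 2 and 6 were the highest 3 of the 6 for Ccn1, Ccn2 and Nt5e, which is 3 of the 16 targets (18.8%) and for Amotl2 and Vgll3 among the 25 components (8%). Over all 17709 genes tested the share was 3.52%. Ccn1 and Ccn2, whose values were seen before the choice, are counted among the 3 targets, so 18.8% cannot be set against that share. Other targets had other samples highest, such as samples 2, 5 and 6 for Ankrd1. Of the further targets, Thbs1 (a matricellular protein) had the same 3 samples highest, at 403, 299, 70.6, 224, 139 and 931 CPM in triple samples 1 to 6, against 315 and 1289 CPM in double samples 1 and 2. These genes share libraries, so the shares are a description and were not tested.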
